A study of Mus musculus with 2 samples.

Results

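The cells described here were single cells of an induced myogenic progenitor cell (iMPC) culture that held transcripts of Pax7 and of Myog at the same time and none of Ckm. They were chosen on raw unique molecular identifiers (UMIs, each counting 1 captured RNA molecule): Pax7 at 2 or more, Myog at 3 or more and Ckm at 0, in barcodes with at least 8036 UMIs, at least 500 detected genes and at most 20% of UMIs in mitochondrial genes. Of 9349 iMPC cells that passed these filters, 292 met the rule, a share of 3.12% (exact binomial 95% interval, 2.78 to 3.50%), and the whole series held 15361 filtered cells. The iMPC library came from mouse embryonic fibroblasts of genotype Tg:Pax7-nGFP/C57BL6;DBA2 that had been given MyoD with F/R/C and were then grown in medium with F/R/C, and the series' design text calls the iMPCs 1 stable clone. The other library was of fibroblasts (MEF) of the same genotype in MEF media by their treatment label, although their protocol field repeats the F/R/C wording. Both were 3′ single-cell libraries, with 1 library per group, so no value below has a replicate check or a test. Cells of 1 library are not replicates, and every interval below covers counting error only.

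Pax7 is the transcription factor that marks muscle stem cells, or satellite cells, and Myog encodes myogenin, the factor switched on when myoblasts commit to differentiation. The proteins seldom stay together for long in muscle, where Pax7 falls as Myog rises, the cell cycle ends, and fusion and sarcomere genes follow. Ckm encodes muscle creatine kinase, a gene of later differentiation, and its absence keeps the set on the early side of that course. Dll1, a Notch ligand that differentiating myoblasts present to their neighbours, and Fgfr4, an FGF receptor of proliferating and early differentiating myoblasts, were named as markers of the set together with Pax7 and Myog.

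Each level of the set was set beside those of its neighbours on either side. The Pax7 side was the 1291 cells with Pax7 at 2 or more and Myog at 0, and the Myog side was the 947 cells with Myog at 3 or more and with Pax7 and Ckm at 0. A gene's level is its UMIs summed over the cells of a set scaled to the total UMIs of that set and given as CPM, UMI counts per 1000000, and ratios carry exact conditional 95% intervals. Pax7, Myog and Ckm defined the sets, so their levels are description only: Pax7 stood at 106 CPM in the Pax7 and Myog cells, 153 CPM on the Pax7 side and 0 on the Myog side, and Myog at 495, 0 and 1469 CPM. Ckm stood at 0, 5.01 and 0 CPM. The rule set no Ckm limit on the Pax7 side, and 1161 of its 1291 cells had no Ckm UMI. Within the set the lowest, median and highest Pax7 UMIs per cell were 2, 3 and 11, and those of Myog were 3, 9 and 93. On the Myog side the Myog UMIs per cell were 3, 30 and 207, so the set held less Myog per cell than that side. Because the sets were taken by the cells' own RNA, no gene difference between them is a test.

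**Figure D1:**
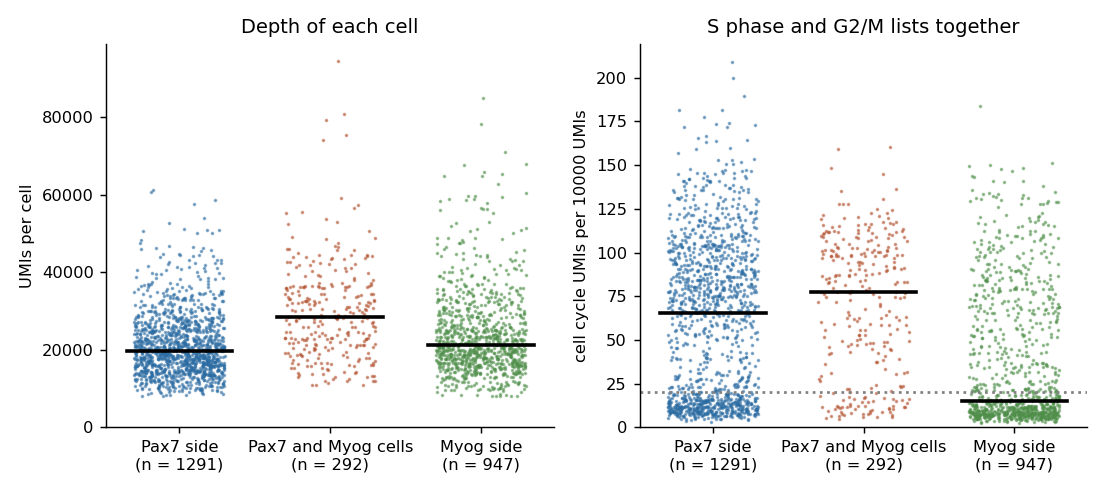
Each dot is 1 cell of the Pax7 side, the Pax7 and Myog cells or the Myog side, by its UMIs (left) and by its UMIs of the S and G2/M lists per 10000 UMIs (right); black bars are medians and the dotted line marks 20. The Pax7 and Myog cells have the highest median in both panels, 28511.5 UMIs and 77.4 cycle UMIs per 10000.

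A rule on raw UMIs of both Pax7 and Myog favours deep cells, and a side without Myog or Pax7 UMIs favours shallow ones. How much this adds to the differences in depth was not tested. The Pax7 and Myog cells were deeper than either side. Their median was 28511.5 UMIs and 4931.5 genes per cell, against 19647 UMIs and 4124 genes on the Pax7 side and 21215 UMIs and 3912 genes on the Myog side, and the medians of the sides add to 40862 UMIs. Scrublet, which scores a barcode by its likeness to simulated pairs of cells, marked 38 of the 292 cells (13.0%, 9.38 to 17.4%), against 1.63% of the Pax7 side, 2.43% of the Myog side and 3.60% of all filtered iMPC cells. Mitochondrial shares were close in the sets, with medians of 3.45%, 3.45% and 3.87%. No barcode of the set was among the 16 shared with filtered MEF cells. If 2% of the UMIs of a cell at the set's median depth were free RNA with the make-up of the 48846 barcodes of 200 to 600 UMIs, it would hold 0.328 Myog and 0.00794 Pax7 UMIs. Values without the cells marked by Scrublet stand beside the main ones where they differ in kind; the part of cell pairs in the remaining 254 cells was not tested.

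Defining markers of several other cell types had no UMI in the set, while other genes of the same lists were present. Endothelial Cdh5, Kdr, Tek and Emcn (4 of 5 listed), immune Ptprc, Adgre1, Cd52 and Lyz2 (4 of 6) and the glial factor Sox10 (1 of 5) had no UMI among its 8712456, and neither had 3 of 5 epithelial and 4 of 5 cartilage genes. A count of 0 allows up to 3 UMIs. Summed fibroblast genes took 9.19 of each 10000 UMIs in the set, 16.8 on the Pax7 side and 4.79 on the Myog side, and the fibroblast proteoglycan Dcn stood at 9.18, 41.8 and 15 CPM. Of the neuron genes, Tubb3 (71.5, 70.9 and 41.8 CPM) and Stmn2 (145, 172 and 47.9 CPM) were present in all sets, while Elavl3, Elavl4 and Rbfox3 had 5, 2 and 1 UMIs in the set. The fifth cartilage gene, Sox9, stood at 66.2, 66.6 and 39.9 CPM. Of the adipocyte list, Lpl stood at 136, 128 and 88.5 CPM, with Plin1 at 0 and Adipoq at 1 UMI. The smooth muscle list took 13.0, 10.8 and 19.95 of each 10000 UMIs, mostly in Des and in Acta2 (476, 281 and 858 CPM), with Cnn1 at 0 and Myh11 at 8 UMIs. The part of such cells in the results was not tested. The muscle label of the cells is carried by Myod1 at 260 CPM, Myf5 at 54.7 CPM, Cdh15 (M-cadherin) at 192 CPM and Des (desmin) at 769 CPM.

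Most genes of the set lay between the sides. Of 5758 genes with at least 20 CPM in any of the 3 sets, Pax7, Myog and Ckm left out, 3476 (60.4%) stood between the levels of the sides, 1735 (30.1%) above both at any fold and 547 (9.5%) below both. At a fold of at least 1.5 over each side, 5 genes stood above both, which is 0.0868% of those tested, and 6 stood below both, or 0.104%. Against the Pax7 side, 333 genes (5.78%) were higher and 343 (5.96%) lower by that fold, and against the Myog side 959 (16.7%) were higher and 416 (7.22%) lower. The median log2 ratio of all tested genes was 0.02 against the Pax7 side and 0.16 against the Myog side. With every ratio divided by that of the median gene, 1082 genes (18.8%) stood above both sides and 1082 below both at any fold, and only Nefm passed the fold of 1.5 above both. By the counts at 1.5-fold the set lay nearer the Pax7 side than the Myog side.

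**Figure D2:**
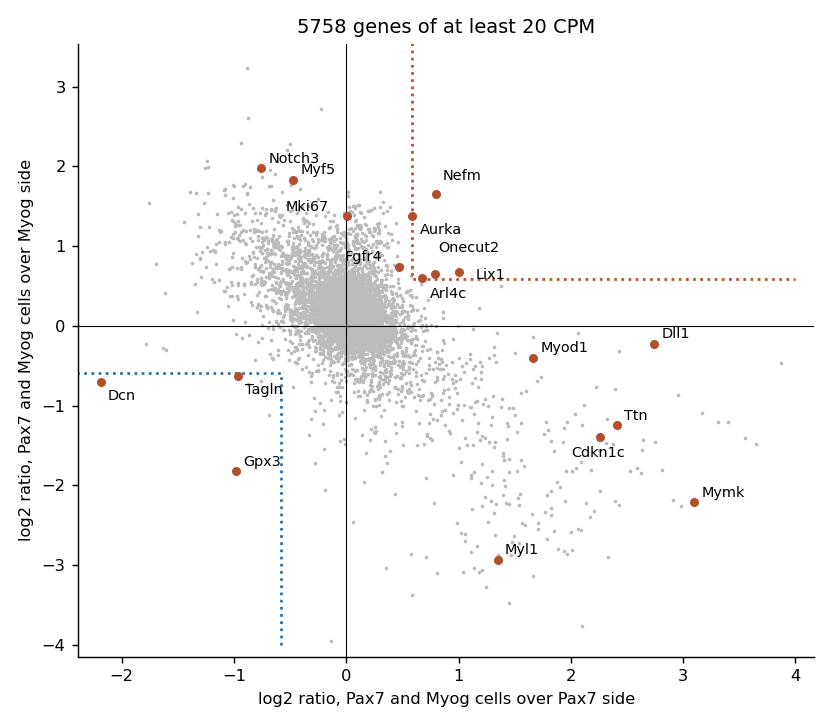
Each of 5758 genes by the log2 ratio of its CPM in the Pax7 and Myog cells over the Pax7 side (horizontal) and over the Myog side (vertical); dotted lines mark the fold of 1.5 and named genes are in colour. The 5 genes in the upper right corner are above both sides, the 6 in the lower left corner are below both, and the tail at the lower right holds muscle genes such as Mymk and Ttn that lie between.

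The 5 genes above both sides were Nefm, Lix1, Onecut2, Arl4c and Aurka. Lix1, a gene named for its expression in the developing limb, stood at 34.8 CPM (31.0 to 38.9), against 17.3 on the Pax7 side and 21.8 on the Myog side, ratios of 2.01 (1.74 to 2.33) and 1.60 (1.38 to 1.85). Per cell, Lix1 had 0, 1 and 7 UMIs at the lowest, median and highest cell of the set. Onecut2, a homeobox transcription factor, stood at 52.7, 30.5 and 33.5 CPM, with ratios of 1.73 (1.54 to 1.94) and 1.57 (1.40 to 1.77). Arl4c, a small GTPase of the ARF-like family, stood at 95.3, 59.6 and 62.7 CPM, with ratios of 1.60 (1.47 to 1.74) and 1.52 (1.39 to 1.66). Lix1, Onecut2 and Arl4c were therefore higher in the set than on either side taken whole. Levels near those of the set were also found outside it for Lix1 and Arl4c. Among Ckm-free cells with 3 to 15 Myog UMIs, Lix1, Onecut2 and Arl4c stood at 31.8, 33.3 and 84.3 CPM with no Pax7 UMI. With 1 Pax7 UMI they stood at 34.1, 32.6 and 108 CPM. Onecut2 was thus lower in these cells than in the set, near its level on the sides.

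Nefm, the medium neurofilament subunit, stood at 22.6, 13.0 and 7.20 CPM, and its ratios were 1.74 (1.45 to 2.07) and 3.14 (2.54 to 3.89). Aurka, the mitotic kinase Aurora A, stood at 79.1, 52.6 and 30.4 CPM, and its ratios were 1.5 (1.37 to 1.65) and 2.6 (2.34 to 2.89). Both were thus nearer to the Pax7 side than to the Myog side. In the 56 cells of the set outside the cycling range, Nefm and Aurka had no UMI. Aurka is on the G2/M list that sets this range, so its absence there follows in part from how the cells were taken. For Nefm the limit of 3 counts puts the log2 ratio to the Pax7 side at -0.46 or lower there, and for Aurka no ratio can be given.

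How far 3 of these genes stand above the Myog side depends on which Myog cells are taken. With that side limited to cells of 0 to 2 UMIs of Myh3, the embryonic myosin heavy chain, the ratio was 1.06 (0.900 to 1.25) for Lix1, 1.21 (1.05 to 1.39) for Onecut2 and 1.21 (1.10 to 1.34) for Arl4c. With both sets limited to 3 to 15 Myog UMIs, a comparison added after the data were seen, these ratios were 1.12 (0.908 to 1.38), 1.49 (1.23 to 1.81) and 1.21 (1.07 to 1.38). Lix1 therefore did not differ beyond counting error between the Pax7 and Myog cells and Myog cells with little Myh3. Aurka kept ratios of 2.18 and 2.63 to the Myog side in these comparisons. Without the cells marked by Scrublet, 14 genes stood above both sides, the 5 among them.

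Fgfr4, a marker of the set, was above both sides and missed the fold of 1.5 over the Pax7 side alone. Its gene (ENSMUSG00000005320) lies on the plus strand of chromosome 13, 55152640 to 55168759, in GRCm38. It stood at 134 CPM (127 to 142) in the set, 96.7 (93.1 to 100) on the Pax7 side and 80.4 (76.7 to 84.2) on the Myog side, with ratios of 1.39 (1.29 to 1.49) and 1.67 (1.55 to 1.80). Of the 5152 genes that reached 20 CPM in the Pax7 and Myog cells, it ranked at 11 by the smaller of its ratios. The lowest, median and highest cells held 0, 4 and 16 Fgfr4 UMIs, against medians of 2 and 1 on the sides. With each cell thinned to 8000 UMIs, 63.0% of the set had a Fgfr4 UMI (57.2 to 68.6%), against 49.0% and 44.5% on the sides and 3.54% of the 113 iMPC cells with Dcn at 20 or more and no Pax7 or Myog. Before thinning the share was 91.4%.

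By summed level Fgfr4 was above both sides in each of the settings tried, but its lead over the Myog side was smaller where that side held little Myh3 or little Myog. Where that side held little Myh3, the lead was within counting error. The ratio to the Myog side was 1.06 (0.978 to 1.15) where that side had Myh3 at 0 to 2 and 1.26 (1.13 to 1.41) at 3 to 15 Myog UMIs, and the Myog side then stood at 126 and 109 CPM, above the Pax7 side. Without the cells marked by Scrublet the ratios were 1.5 and 1.80. In the 38 marked cells Fgfr4 stood at 80.5 CPM, and in the 254 others at 146 CPM. Of the FGF system's other genes, the receptor Fgfr1 stood at 60.8, 79.5 and 42.8 CPM, between the sides, and so did the feedback inhibitors Spred1 (41.2, 63.7 and 19.5 CPM) and Dusp6 (46.4, 60.6 and 28.9 CPM). Of 6 tested feedback genes, 4 lay between the sides, beside 60.4% of all genes, 1 was below both, and Spry2 was above both (61.8, 55.4 and 51.6 CPM). Of 3 tested FGF receptors, 1, Fgfr4, was above both sides at any fold, near the 30.1% of all genes. In the filtered MEF cells no Fgfr4 UMI was found among 118284766, where a count of 0 allows up to 3.

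**Figure D3:**
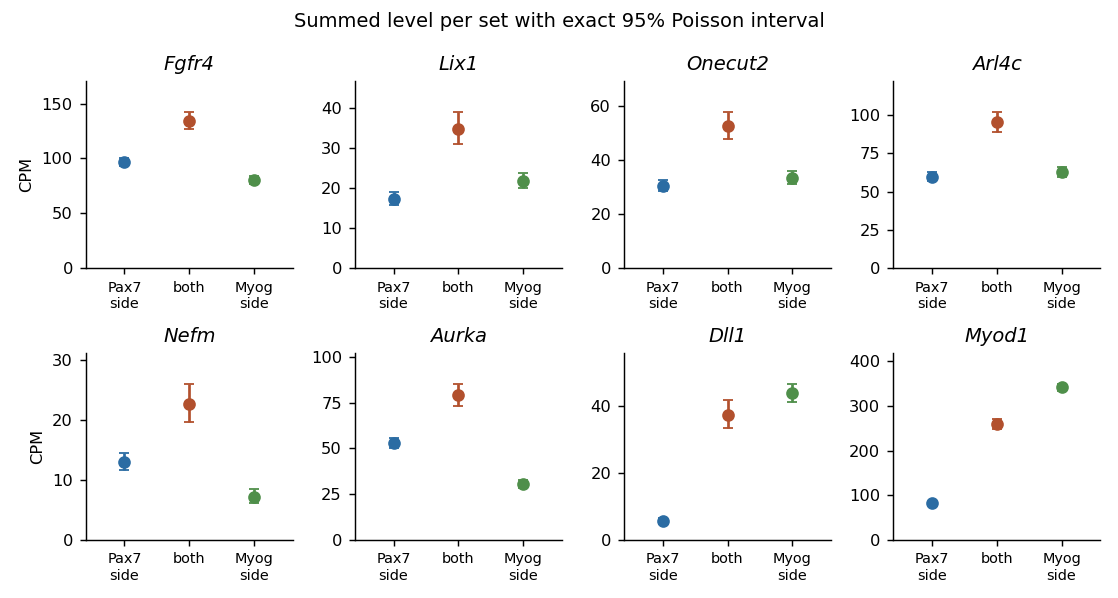
CPM of 8 genes in the Pax7 side, the Pax7 and Myog cells (both) and the Myog side, 1 panel each with its own axis from 0; points are summed levels and error lines exact Poisson 95% intervals. The first 6 genes, Fgfr4 to Aurka, are highest in the middle set, and Dll1 and Myod1 are nearer to the Myog side than to the Pax7 side.

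Among the other genes of the 20 with the largest smaller ratio, several work in the cell cycle. Skp2, which targets the Cdk inhibitor p27 for destruction, stood at 38.8, 25.9 and 23.4 CPM. Ccna2, cyclin A2, stood at 94.1, 68.5 and 45.6 CPM, and Rif1, a regulator of replication timing, at 51.5, 36.5 and 30.4 CPM. Outside that group, Ets2, an ETS transcription factor, stood at 35.9, 22.6 and 25 CPM. Fbxo32 (atrogin-1), a muscle ubiquitin ligase subunit, stood at 23.0 CPM, against 8.83 and 16.2, ratios of 2.6 (2.15 to 3.15) and 1.42 (1.19 to 1.69). The remaining genes of the 20 were Shmt1, Rpgrip1, Nelfa, Exosc2, Cep41, Rangap1, Mns1, Nup153 and Asf1b.

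The genes below both sides were Gpx3, Hbegf, Dcn, Anxa3, Cst6 and Tagln. Gpx3, a secreted glutathione peroxidase, stood at 11.4 CPM in the set, 22.4 on the Pax7 side and 40.1 on the Myog side. Tagln, a smooth muscle actin-binding protein gene, stood at 38.5, 74.9 and 59.5 CPM, and Anxa3 at 25.3, 42.8 and 40.9 CPM. Hbegf, an EGF receptor ligand, stood at 11.5, 21.1 and 19.1 CPM. Several of these genes are also expressed by fibroblasts, whose summed markers were at 9.19 per 10000 UMIs in the set and 16.8 on the Pax7 side, and their part in these levels was not tested. Tagln and Anxa3 changed order against the Myog side in 1 setting each, to log2 ratios of 0.29 with Pax7 at 3 or more and Myog at 6 or more, and 0.78 with the Myh3 limit.

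Dll1, the other marker, stood with the Myog side. Its gene (ENSMUSG00000014773) lies on the minus strand of chromosome 17, 15367354 to 15376872, in GRCm38. It was at 37.4 CPM (33.5 to 41.7) in the set, 5.59 (4.75 to 6.55) on the Pax7 side and 43.8 (41.1 to 46.6) on the Myog side, with ratios of 6.69 (5.51 to 8.16) and 0.855 (0.752 to 0.970). The set thus held nearly as much Dll1 as the whole Myog side while it held Pax7. The lowest, median and highest cells of the set had 0, 1 and 9 Dll1 UMIs, and 133 of the 292 had none. At 8000 UMIs per cell, 25.3% of the set (20.5 to 30.7%), 4.03% of the Pax7 side and 28.0% of the Myog side had a Dll1 UMI, against 2.65% of the Dcn cells and 0.15% of MEF cells. Over all cells it was not above both sides, and it ranked at 3738 of 5152 genes by the smaller ratio. In the cells under 20 cycle UMIs per 10000 it was above both, at 52.8, 6.96 and 34.6 CPM, with ratios of 7.59 (5.08 to 11.4) and 1.53 (1.14 to 2.01). At 3 to 15 Myog UMIs its ratio to the Myog side was 1.08 (0.863 to 1.36). With the Myog side limited to cells of 0 to 2 Myh3 UMIs, that side stood at 57.9 CPM. The Dll1 ratio was then 0.646 (0.561 to 0.744), lower in the set beyond counting error.

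The 250 bases before the outermost RefSeq start of Dll1 and the 235 before the GENCODE start of Myog are shown because Dll1 is a marker of the set and Myog a gene of its rule, and because MyoD and myogenin bind E-boxes. Capitals mark matches to the E-box letters CANNTG, which read the same on both strands. Both stretches are RefSeq promoter windows on GRCm38.p6, the Dll1 stretch chr17:15376933-15377182 on the minus strand and the Myog stretch chr1:134289754-134289988 on the plus strand, each printed 5′ to 3′.
Dll1: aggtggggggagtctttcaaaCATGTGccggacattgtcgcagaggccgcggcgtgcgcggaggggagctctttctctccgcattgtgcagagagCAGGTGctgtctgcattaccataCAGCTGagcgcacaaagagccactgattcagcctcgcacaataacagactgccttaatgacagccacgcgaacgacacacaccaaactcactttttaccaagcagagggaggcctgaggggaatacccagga
Myog: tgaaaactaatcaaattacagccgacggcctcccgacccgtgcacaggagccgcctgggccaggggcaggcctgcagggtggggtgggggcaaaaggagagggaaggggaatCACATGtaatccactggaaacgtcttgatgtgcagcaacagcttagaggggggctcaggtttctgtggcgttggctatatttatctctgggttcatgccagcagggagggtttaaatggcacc
The Dll1 stretch holds 3 matches, which begin at bases -229, -155 and -132 from the RefSeq start, and 1 of them is CAGCTG. The Myog stretch holds 1, at base -138 from its RefSeq start. CANNTG is found in 72.3% of 32851 RefSeq promoter windows of 300 bases (250 before and 50 after a start) and CAGCTG in 16.3%, so a match is common and is a description, not a binding site.

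Over groups of genes, CAGCTG was found in 13.9% of the windows of genes tested. It was in 27.6% of 431 windows of the genes at least 2-fold higher on the Myog side than on the Pax7 side. Among these, windows of the genes that had come at least 50% of the way in the Pax7 and Myog cells held it in 12 of 48 (25%), and windows of those under 20% in 46 of 149 (30.9%). The contractile genes held it in 11 of 25 windows (44%). Of the 20 genes led by Nefm and Lix1, 15 had a window, and 1 of their 16 windows held CAGCTG.

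Among other genes of the Notch pathway, Notch3, Hes1, Hey1 and Heyl lay between the sides. The receptor Notch1 stood at 97.6, 96.2 and 51.3 CPM in the set, on the Pax7 side and on the Myog side, and Notch3 at 38.9, 65.9 and 9.89 CPM. The target genes Hes1 (104, 138 and 47.1 CPM), Hey1 (41.3, 54.8 and 12.6 CPM) and Heyl (26.1, 42.0 and 7.73 CPM) were each lower than on the Pax7 side and at least 2.21-fold higher than on the Myog side. Rbpj, the DNA-binding partner of the Notch receptors, stood at 152, 98.9 and 179 CPM. Of 7 tested genes of the fixed list of Notch targets, 5 lay between the sides, near the 60.4% of all genes. The other 2, Id1 and Id2, were above both at any fold, near the 30.1% of all genes. They are Id factors, not Hes or Hey genes, and their response to Notch was not tested.

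To place genes between the sides, the rise from the Pax7 side to the Myog side was taken as 100% and the level of the set given as a percent of that way, a measure added after the data were seen. Of 392 genes at least 2-fold higher on the Myog side than on the Pax7 side (6.81% of those tested), the median gene had come 25.8% of the way, with 8.75% and 53.0% at the tenth and ninetieth percentiles. At least 50% of the way had been covered by 47 genes (12%), and under 20% by 147 (37.5%). Dll1 stood at 83.4% (73.0 to 94.6%) and Myod1 at 68.3% (64.2 to 72.5%). E2f2, an E2F factor, stood at 95.9%, the carbonic anhydrase gene Car2 at 90.4%, the Wnt-pathway ligand Rspo3 at 76.9%, the muscle cofactor Vgll2 at 73.7% and Sox8 at 70.8%. These positions are fractions of a difference, and genes placed far along need not be abundant.

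**Figure D4:**
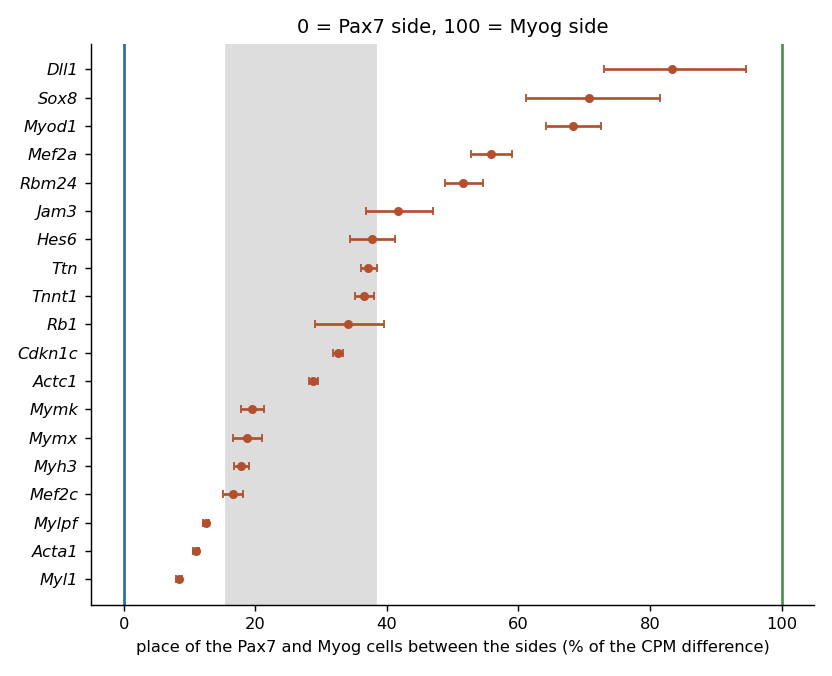
Percent of the way from the Pax7 side (0) to the Myog side (100) for 19 genes chosen from the lists after their values were seen, with intervals from counting error; the grey band spans the quartiles, 15.5 to 38.3, of the 392 genes that differ at least 2-fold. Dll1 and Myod1 lie beyond the band, Mymk and Myh3 lie inside it near its lower edge and Myl1 lies below it.

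Set against the whole Myog side, several commitment factors stood further along than the contractile genes. With that side limited to cells of 0 to 2 Myh3 UMIs the order turned: the contractile list stood at 98.9% of the way and Myl1 at 168%, against 66.4% for Myod1 and 55.0% for Mef2a. Myod1, the factor used to make the cells, stood at 260, 81.9 and 342 CPM, with 0, 6 and 32 UMIs in the lowest, median and highest cell of the set. RNA of the MyoD that was given to the cells and RNA of the Myod1 gene cannot be told apart in these counts. Mef2a, a partner of myogenin, stood at 55.8% of the way (291, 87.3 and 451 CPM), and the RNA-binding protein gene Rbm24 at 51.6% (189, 24.3 and 343 CPM). Hes6, which promotes differentiation, stood at 37.8% (135, 49.5 and 276 CPM), Rb1 at 34.1% (35.5, 9.26 and 86.1 CPM) and Mef2c at 16.6% (158, 64.3 and 633 CPM). The 7 commitment genes of this kind had a median of 34.1%, beside 25.8% for all 392. Of 18 tested genes of the commitment list, 7 enter that median, and 5 were above both sides at any fold, beside 30.1% of all genes, among them the E protein gene Tcf12 (167, 152 and 133 CPM), whose product pairs with myogenic factors.

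Summed over the whole set, the fusion genes Mymk and Mymx and the sarcomere genes were higher than on the Pax7 side and lower than on the whole Myog side. Mymk (myomaker) stood at 74.6, 8.72 and 346 CPM and Mymx (myomixer) at 44.2, 5.59 and 212 CPM, at 19.5% and 18.7% of the way. Mymk had 0, 1 and 29 UMIs in the lowest, median and highest cell, and 141 of the 292 had none. Of 11 tested genes of the wider fusion and adhesion list, 4 were at least 1.5-fold higher than on the Pax7 side and 1 lower. Against the Myog side, 5 were lower and 3 higher by that fold. The shares of all genes were 5.78% higher and 5.96% lower against the Pax7 side. They were 7.22% lower and 16.7% higher against the Myog side. All 25 tested contractile genes lay between the sides, and 24 were at least 1.5-fold over the Pax7 side and under the Myog side by that fold; Des was the exception (769, 667 and 1070 CPM). Ttn (titin) was at 37.2% (622, 117 and 1475 CPM), Tnnt1 (slow troponin T) at 36.6% (837, 350 and 1680 CPM), Myh3 at 17.9% (152, 28.3 and 723 CPM) and Myl1 at 8.41% (378, 148 and 2880 CPM). Without the cells marked by Scrublet, Myl1 stood at 1.60%, Mymk at 13.2% and Tnnt1 at 36.6% of the way. With the set and the Myog side limited to 3 to 15 Myog UMIs, these genes stood at -0.126%, 11.9% and 60.7%. Myl1 was then not above the Pax7 side. The 24 contractile genes that differ 2-fold between the sides had a median of 12.7%, beside 25.8% for all 392, and their reads can be split between near-identical myosin and actin genes. Summed contractile genes took 85.0 of each 10000 UMIs in the set, 32.6 on the Pax7 side and 337 on the Myog side. In the 38 cells marked by Scrublet they took 170, and in the other 254 cells 66.4. As a list they stood at 17.2% of the way, at 11.1% without the marked cells, and at 98.9% where the Myog side was limited to cells with Myh3 at 0 to 2, a limit that itself removes cells rich in contractile RNA.

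Several genes of the stem cell state were lower than on the Pax7 side. Myf5, the early myogenic factor, stood at 54.7 CPM in the set, 75.9 on the Pax7 side and 15.4 on the Myog side, a ratio of 0.721 (0.651 to 0.797) to the first. Msc (musculin) stood at 22.4, 42.9 and 4.55 CPM and Vcam1 at 28.9, 42.5 and 11.5 CPM. Met, the hepatocyte growth factor receptor, was at the Pax7-side level (22.5, 22.1 and 8.04 CPM), and Megf10 ran the other way at 16.8, 4.29 and 38.5 CPM. Of 10 tested genes of the stem list, Pax7 not counted, 7 lay between the sides, 2 above both and 1 below both at any fold, near the 60.4%, 30.1% and 9.5% of all genes. At a fold of 1.5, 2 of the 10 (Sdc3 and Msc) were lower than on the Pax7 side and 1 (Megf10) higher, beside 5.96% and 5.78% of all genes. Away from muscle factors, the mural cell receptor Pdgfrb stood at 16.2, 54.6 and 5.56 CPM and the peptide gene Cck at 41.5, 126 and 51.4 CPM. The 669 genes at least 2-fold higher on the Pax7 side (11.6%) had come a median of 49.4% of the way.

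The Pax7 and Myog cells held the highest share of G2 and mitosis transcripts of the 3 sets. Genes of G2 and mitosis took 57.5 of each 10000 UMIs (57.0 to 58.0), against 52.2 (51.9 to 52.4) on the Pax7 side and 28.3 (28.1 to 28.5) on the Myog side. Genes of S phase took 16.7, 16.6 and 9.73. Of 45 tested G2 and mitosis genes, 38 were above both sides at any fold, beside 30.1% of all genes, and Aurka alone passed the fold of 1.5. With ratios divided by that of the median gene, 36 of the 45 were above both, beside 18.8% of all genes, and 11 of the 28 S phase genes. Ccnb1 was 1.27-fold and Cdk1 1.22-fold over the Pax7 side, while Mki67 stood at 157, 156 and 60.6 CPM. Ckm-free cells with Pax7 at 2 or more and 1 to 2 Myog UMIs are in none of the sets. In them Mki67 stood at 180 CPM, above the set, and Aurka at 68.5 CPM, between the Pax7 side and the set. Of 28 tested S phase genes, 12 were above both and 16 between.

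Cells with at least 20 UMIs of these genes per 10000 made up 236 of the 292 (80.8%, 75.8 to 85.2%), against 68.1% (65.5 to 70.6%) of the Pax7 side and 44.2% (41.1 to 47.5%) of the Myog side. The levels over cells of the set ran from 4.90 through a median of 77.4 to 160. With all sets limited to cells of 15000 to 40000 UMIs, G2 and mitosis genes took 59.6, 56.4 and 29.8 of each 10000 UMIs and S phase genes 17.3, 17.9 and 10.6, so that the set led by G2 and mitosis genes and not by S phase genes. These transcripts alone do not show that a cell divides.

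Cell cycle inhibitors differed from the Pax7 side in both directions. Cdkn1c, the inhibitor p57 that accompanies myoblast exit, stood at 1118 CPM in the set, 234 on the Pax7 side and 2948 on the Myog side, 32.6% of the way. Its UMIs ran from 0 through a median of 14 to 224 per cell. Cdkn1a (p21) stood at 532, 386 and 918 CPM and Cdkn1b (p27) at 52.5, 75.6 and 44.7 CPM. Of 17 tested genes of the cycle exit list, 4 (Cdkn1c, Rb1, Gadd45b and Gadd45g) were at least 1.5-fold higher than on the Pax7 side and 1 (Cdkn2b) lower. Of all genes, 5.78% were higher and 5.96% lower by that fold, so the 1 lower gene is near the share of all genes. In the list 13 genes lay between the sides, beside 60.4% of all genes. In the 236 cycling cells of the set Cdkn1c was at 1020 CPM, and in the other 56 at 1786 CPM. Dll1 stood at 35.2 and 52.8 CPM in the same cells, Fgfr4 at 132 and 148 CPM, and Mymk at 64.5 and 143 CPM. Levels of the exit inhibitor and of cycle genes were thus present together in the summed RNA of the cycling cells.

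Within the set, cells were grouped by their Myog UMIs: 115 had 3 to 5, 83 had 6 to 15 and 94 had 16 or more. Across these groups Dll1 stood at 22.4, 42.5 and 48.7 CPM, Mymk at 15, 32.0 and 164 CPM, and Cdkn1c at 361, 935 and 2003 CPM. Fgfr4 was at 131, 147 and 128 CPM, with no order by Myog. Summed contractile genes took 44.9, 62.4 and 141 of each 10000 UMIs. Dll1 differed most between the first groups and little between the second and the last, whereas Mymk and the contractile genes differed most between the second and the last.

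Cells of the Myog side in the same groups numbered 126, 137 and 684, and Dll1 there stood at 19.0, 37.7 and 48.5 CPM, each within the counting error of the set's value. Mymk differed more, at 53.6, 186 and 416 CPM on the Myog side. Contractile genes took 103, 299 and 378 of each 10000 UMIs there, so at like Myog UMIs the cells that also held Pax7 had fewer contractile transcripts. The groups are not matched in depth: median UMIs were 26001, 27982 and 32933.5 in the set and 19072.5, 17536 and 22571.5 on the Myog side, so the same Myog UMIs were a smaller share of the RNA in the set, at 129, 361 and 954 CPM against 179, 498 and 1817 CPM. Fgfr4 on the Myog side stood at 109, 110 and 71.5 CPM, lower than in the set in each group.

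**Figure D5:**
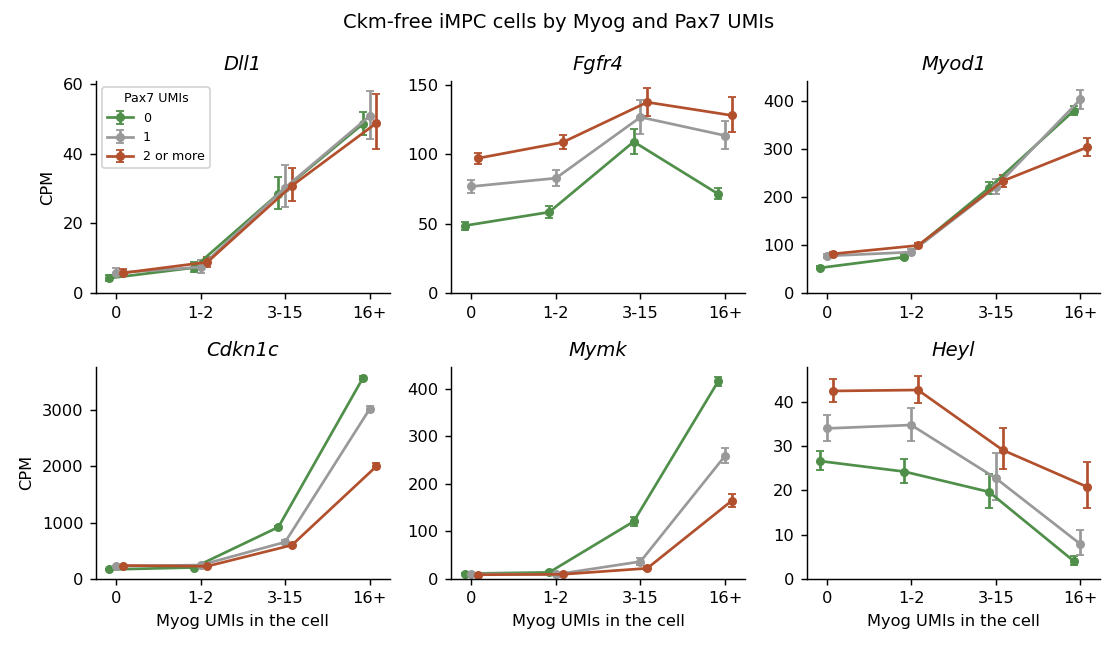
CPM of 6 genes in Ckm-free iMPC cells by Myog UMIs (horizontal: 0, 1 to 2, 3 to 15, 16 or more), with 1 line for each Pax7 class (0, 1, 2 or more) and exact Poisson 95% intervals. The Dll1 lines overlap, the Fgfr4 lines are ordered by Pax7, and Mymk at 16 or more Myog UMIs stands at 416 CPM without Pax7 and at 164 CPM with Pax7 at 2 or more.

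All Ckm-free iMPC cells were also laid out by both factors. Dll1 was ordered by Myog and hardly by Pax7. With Myog at 0, at 1 to 2, at 3 to 15 and at 16 or more it stood at 5.78, 8.89, 30.8 and 48.7 CPM in cells with Pax7 at 2 or more (1161, 769, 198 and 94 cells), and at 4.29, 7.29, 28.5 and 48.5 CPM in cells with no Pax7 UMI (1275, 736, 263 and 684 cells). Cells with 1 Pax7 UMI gave 5.80, 7.45, 30.2 and 50.7 CPM. Fgfr4 was higher with Pax7 at each Myog level, at 97.3, 109, 138 and 128 CPM with Pax7 at 2 or more and 48.6, 58.4, 109 and 71.5 CPM without Pax7. In each row its highest value was at 3 to 15 Myog UMIs.

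Mymk was low in each Pax7 class until Myog reached 3 UMIs, and then differed by Pax7. At 3 to 15 Myog UMIs it stood at 22.0, 36.2 and 121 CPM with Pax7 at 2 or more, at 1 and at 0, and at 16 or more at 164, 259 and 416 CPM. Heyl ran the other way, at 29.1, 22.7 and 19.7 CPM and then at 20.8, 7.86 and 4.05 CPM. Myod1 stood at 233, 222 and 219 CPM at 3 to 15 Myog UMIs, with overlapping intervals. At these Myog UMIs the 3 classes therefore had like Dll1 and Myod1 and unlike Mymk. The class without Pax7 at Myog 0 also holds fibroblast-like cells, and the Pax7 classes differ in depth, with median UMIs of 18550, 20785 and 26678 for Pax7 at 0, 1 and 2 or more at 3 to 15 Myog UMIs.

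Values on either side of the thresholds were as follows. Cells with 1 Pax7 UMI and Myog at 3 or more (295 cells) had Dll1 at 41.7 and Fgfr4 at 120 CPM, and those with 2 Pax7 UMIs (143 cells) at 42.6 and 141 CPM. Cells with Pax7 at 2 or more and 2 Myog UMIs (185 cells) had Dll1 at 9.62 and Fgfr4 at 101 CPM, and those with 3 Myog UMIs (61 cells) at 23.3 and 128 CPM. Cells that met the Pax7 and Myog rule and had 1 Ckm UMI (58 cells) had 27.8 and 107 CPM. Cells with any Ckm UMI that otherwise met the rule numbered 132 and were left out.

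The 6012 filtered MEF cells held almost no transcripts of Dll1, Fgfr4, Mymk or the myogenic factors Pax7, Myog, Myod1 and Myf5. Among their 118284766 UMIs there were 17 of Dll1 (0.144 CPM), 9 of Myod1, 6 of Myog, 2 of Pax7, 2 of Mymk and none of Fgfr4 or Myf5. Other genes named above were present there. Cdkn1c stood at 152 CPM, Arl4c at 43.0, Mki67 at 18.2, Notch1 at 13.8, Hes6 at 13.2, Skp2 at 11.9, Notch3 at 10.3 and Aurka at 9.59 CPM. These genes are therefore not specific to the iMPC culture.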

How the data were processed

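The authors deposited raw count matrices of UMIs per gene and barcode, 1 for iMPC and 1 for MEF cells; Cell Ranger 4.0, Seurat 3.2.3 and build GRCm38.p6 are named in the submitters' processing notes without roles. The iMPC matrix listed 6794880 barcodes with 282903287 UMIs. Barcodes above 10% of the UMIs at percentile 99 of the top 10000 (8036) numbered 9540, and 9349 passed the gene and mitochondrial filters; 6012 of 6113 MEF barcodes passed. UMIs were summed per set with Python 3.11.15, numpy 2.4.6 and scipy 1.17.1, with exact Poisson, conditional and binomial (Clopper-Pearson) intervals. Scrublet was run through scanpy 1.11.5 and its calls were kept in the main sets. Cells were thinned to 8000 UMIs, leaving out 629 MEF cells. Calculations were tested on simulated data. Members, lists and comparisons were chosen with earlier results of these data known. Named genes were 13 fixed ones, the 20 highest above both sides, 5 lowest below both, 5 extremes against each side, and list members; others were chosen after their values were seen. Positions are GENCODE M21 (GRCm38); 5758 of 5761 identifiers matched. Alternatives changed doublets, thresholds, depth, scaling, Myh3, cycling, Ckm, free RNA and Myog range.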

Additional observations from a re-analysis of the deposited data

How the results depend on the processing

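No paired analysis was possible because each group is 1 library. Of 82 recomputed values that answer a comparison 24 kept within the limits set and 58 moved; of 816 for single genes 618 kept, 195 moved and 3 reversed. Where a set held no UMI of a gene, its value stands at the 3-count limit. The reversed ones were the log2 ratios of Nefm to the Pax7 side (-0.46 or lower in cells under 20 cycling UMIs per 10000, a limit from 3 counts since the set held none), of Anxa3 to the Myog side (0.78 with Myh3 at 0 to 2 there) and of Tagln to the Myog side (0.29 with Pax7 at 3 or more and Myog at 6 or more). The place of Dll1 between the sides was counted as moved, although its order against the Myog side changed too. Its ratio to that side was 0.855 over all cells and 1.53 (1.14 to 2.01) in cells under 20 cycling UMIs per 10000. For each moved value the cause was not tested, beyond fewer cells in stricter sets and the Myh3 limit's removal of contractile RNA.

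The number of Pax7 and Myog cells was 79 with Pax7 at 3 or more and Myog at 6 or more and 56 under 20 cycling UMIs. Genes above both sides numbered 14 without cells marked by Scrublet (5 shared with the main result), 14 at the stricter thresholds (3 shared), 8 from CPM averaged over cells (2 shared), 14 with the Myh3 limit (2 shared) and 82 in cells under 20 cycling UMIs (1 shared). They numbered 0 at a fold of 2, 9 from 10 CPM, 3 from 50 CPM and 1 (Nefm) with ratios centred on the median gene, a setting added after the data were seen. Genes below both numbered 15 without marked cells, 3 at the stricter thresholds, 10 at 15000 to 40000 UMIs, 13 without mitochondrial and ribosomal protein genes, 104 under 20 cycling UMIs and 2 with Ckm at 0 to 2. They numbered 0 at a fold of 2, 17 from 10 CPM, 1 from 50 CPM and 41 at 3 to 15 Myog UMIs, also added later.

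The S phase level per 10000 UMIs was 17.5 without marked cells, 17.3 at 15000 to 40000 UMIs, 26.2 without mitochondrial and ribosomal protein genes, 16.4 as a mean over cells, 16.3 with Ckm at 0 to 2 and 18.4 at 3 to 15 Myog UMIs. The G2/M level was 60.4, 59.6, 90.1, 53.6, 54.3 and 59.5 in the same settings, and 58.3 with free RNA subtracted. The contractile list, with its measure added later, stood at 17.2% of the way, and at 11.1, 19.0, 17.0, 19.2, 22.2 and 11.5% in those 6 settings, 23.7% at the stricter thresholds, 17.6% with at most 10% mitochondrial UMIs, 98.9% with the Myh3 limit and 12.7% under 20 cycling UMIs. Dll1 stood at 60.9% of the way with the Myh3 limit, 110% at 3 to 15 Myog UMIs and 166% under 20 cycling UMIs, and at 82.5 to 94.4% in the other settings.

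Shares of cells with a UMI at 4000 UMIs per cell were 15.8% for Dll1, 40.8% for Fgfr4, 59.6% for Myod1, 17.8% for Mymk, 41.4% for Hes6, 68.8% for Cdkn1c and 40.4% for Mki67. Unthinned they were 54.5, 91.4, 92.5, 51.7, 86.0, 95.5 and 70.9%.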
